A study of Homo sapiens with 6 samples.

Results

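The MAF and BACH genes were followed through the conversion of B cell leukemia cells into macrophages, with and without the architectural protein CTCF. MAF, MAFF, MAFG, MAFK, BACH1 and BACH2 were chosen by their gene symbols, with no measured value in the rule, and all 6 are among the 30017 genes of the count table. All 6 passed the filter on low counts and belong to the 14758 genes tested, with MAF passing through its counts at 96 h.

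The cells were BLaER1-CTCF-mAID, a BLaER subclone of B cell leukemia origin with a degron on CTCF, which is broken down when the auxin IAA is added. The cells carry an inducible form of the transcription factor CEBPA, and transdifferentiation factors (estradiol, IL-3 and CSF-1) convert them into induced macrophages. The 3 groups, each with 2 biological replicates, were B cells that had received neither the factors nor IAA (0 h), cells converted for 96 h in the absence of IAA (96 h control) and cells given IAA and the factors at the same time and collected at 96 h (96 h CTCF-depleted). All libraries come from 1 subclone that carries the degron in every group, and a line without the degron that was treated with IAA was not analysed here, and the effect of IAA cannot be told apart from that of CTCF loss. The degron acts on the protein, so that transcript counts do not check the depletion.

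Total counts ranged from 9273470 to 12718780 per library, and counts of the replicates differed beyond sampling error in each group (chi-square per degree of freedom from 1.71 to 2.69). All 10 B cell markers were lower and all 10 macrophage markers higher in 96 h control cells than at 0 h. Of the macrophage markers, 4 had 0 counts in both 0 h libraries and 2 had at least 10 counts in both. Markers that passed the filter through their counts at 96 h could only be higher, so that their number does not support a direction. The summed level of the B cell markers ranged from 3363 to 3405 CPM (counts scaled to library size) at 0 h, from 430.0 to 439.6 CPM in 96 h control cells and from 442 to 455 CPM in 96 h CTCF-depleted cells. The sum of the macrophage markers rose from between 35.3 and 39.0 CPM to between 5133 and 5383 CPM in control cells and between 5003 and 5046 CPM in CTCF-depleted cells. Neutrophil markers, 5 genes, summed to at most 1.95 CPM at 0 h, to between 126 and 127 CPM in control cells and to between 93.3 and 101 CPM in CTCF-depleted cells, whereas the 5 erythroid markers were at 0 counts apart from 1 count in a single library. Of the 6 T and NK cell markers, 4 were at 0 in both 0 h libraries. The list summed to between 2.58 and 2.85 CPM at 0 h and rose to between 32.3 and 38.5 CPM at 96 h, mostly through NKG7 (34.7 CPM in control cells). In these bulk samples, fewer cells of a type and less RNA per cell cannot be told apart.

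MAF and BACH proteins are basic leucine zipper (bZIP) transcription factors, which bind DNA as dimers at MAF recognition elements and at the related antioxidant response elements. MAF is a large MAF protein with a domain that activates transcription, and it drives expression of IL10 and of other genes of mature macrophages. The small MAF proteins MAFF, MAFG and MAFK lack such a domain, and their effect depends on the partner. With the cap'n'collar (CNC) proteins NFE2, NFE2L1, NFE2L2 (NRF2) and NFE2L3 they activate genes, and with BACH1 or BACH2 they repress them. BACH1 is a heme-regulated repressor of heme oxygenase (HMOX1) and of iron and antioxidant genes, and BACH2 maintains the B cell state by holding back PRDM1 and the plasma cell programme.

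The genes lie on 6 chromosomes (hg38, positions from GENCODE release 44). MAF spans chr16:79585843-79600737 on the minus strand, MAFF chr22:38200767-38216507 on the plus strand, MAFG chr17:81918270-81927735 on the minus strand and MAFK chr7:1530702-1543043 on the plus strand. The BACH genes are much longer, with BACH1 at chr21:29194071-29630751 on the plus strand (436.7 kb) and BACH2 at chr6:89926528-90296843 on the minus strand (370.3 kb). Exons of MAFF share 326 bases with PLA2G6 on the opposite strand, exons of MAFK share 809 bases (18.1% of the MAFK exon bases) with TMEM184A on the opposite strand, and exons of MAFG share 105 bases with SIRT7 on the same strand. PLA2G6 had 185 to 311 counts in every library, more than MAFF, and SIRT7 had 185 to 287, whereas TMEM184A had at most 9. The strand setting of the counting is not given in the sources used here, so that reads in these shared stretches may be assigned to either gene.

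Promoter windows from 250 bases before to 50 after the annotated start, were read from RefSeq (GRCh38.p14) for 5 of the 6 genes, all but MAFK. The 4 printed here hold a site of the bZIP family close to the start of a gene whose transcript level changed during conversion, and the capitals mark the cAMP response element TGACGTCA (CRE, its own reverse complement), the AP-1 site TGANTCA and the TGCTGA arm of a MAF recognition element or its reverse complement TCAGCA. MAF lies at chr16:79600688-79600987 (minus strand), MAFF at chr22:38201744-38202043 (plus strand), BACH1 at chr21:29298672-29298971 (plus strand) and BACH2 at chr6:90296794-90297093 (minus strand), each written 5′ to 3′ along its gene.
MAF: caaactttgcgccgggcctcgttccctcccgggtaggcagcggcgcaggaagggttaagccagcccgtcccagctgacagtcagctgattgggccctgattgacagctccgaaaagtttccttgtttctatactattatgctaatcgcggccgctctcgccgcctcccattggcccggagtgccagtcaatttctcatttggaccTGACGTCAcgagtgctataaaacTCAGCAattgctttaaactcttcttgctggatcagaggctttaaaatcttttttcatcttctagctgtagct
MAFF: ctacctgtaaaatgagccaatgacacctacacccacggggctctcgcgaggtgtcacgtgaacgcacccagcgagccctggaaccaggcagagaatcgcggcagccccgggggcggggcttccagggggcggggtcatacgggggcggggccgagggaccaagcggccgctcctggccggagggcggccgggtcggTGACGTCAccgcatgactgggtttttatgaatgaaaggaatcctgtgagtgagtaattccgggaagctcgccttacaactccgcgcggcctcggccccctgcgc
BACH1: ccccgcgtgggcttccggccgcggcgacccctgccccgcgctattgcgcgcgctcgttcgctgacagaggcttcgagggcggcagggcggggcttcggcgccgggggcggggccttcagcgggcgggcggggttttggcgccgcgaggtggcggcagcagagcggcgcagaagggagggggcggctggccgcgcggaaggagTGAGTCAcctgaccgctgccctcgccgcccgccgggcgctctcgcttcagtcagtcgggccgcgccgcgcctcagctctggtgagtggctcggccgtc
BACH2: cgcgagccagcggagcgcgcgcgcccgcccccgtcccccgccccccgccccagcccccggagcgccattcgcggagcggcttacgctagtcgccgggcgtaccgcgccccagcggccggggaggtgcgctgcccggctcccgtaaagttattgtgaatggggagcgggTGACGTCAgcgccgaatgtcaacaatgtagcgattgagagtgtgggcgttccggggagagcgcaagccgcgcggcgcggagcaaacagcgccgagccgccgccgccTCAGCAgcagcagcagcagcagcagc

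The CRE was found 45 bases before the start of MAF, 54 before that of MAFF and 82 before that of BACH2, and 649 of all 35116 RefSeq promoter windows of this length (1.848%) hold it. The AP-1 site was found in the printed BACH1 window, 48 bases before the annotated start, and occurs in 7.709% of all windows. The TGCTGA arm was found in the windows of MAF and BACH2 and in another of the 3 BACH1 windows, and occurs in 17.328% of all. The core of the antioxidant response element, TGACNNNGC, was found in the MAFF window only (on the other strand, in lower case above), with a share of 13.347% of all windows. A full element with both arms, TGCTGA and TCAGCA separated by 1 or 2 bases, was found in none of the windows of the 5 genes with one and in 2 windows in all (0.006%). The window of MAFG, which also rose during conversion, held none of these motifs, and neither did the other MAFF window and the remaining BACH1 window. A link between these sites and the changes in level was not tested. These motifs were chosen with the sequences in view and searched on both strands, and a match describes letters only.

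Conversion was associated with a change in transcript level of 5 of the 6 genes. In 96 h control cells against 0 h, MAF, MAFF, MAFG and BACH1 were higher, BACH2 was lower, and MAFK did not pass the fold change threshold. Differential expression was called with edgeR's quasi-likelihood test where the Benjamini-Hochberg adjusted p was under 0.01 and the log2 fold change exceeded 0.6 in size. With these thresholds, 4 of 6 genes were called higher where 25.4% of all genes tested were, and 1 of 6 lower where 22.9% of all genes were. MAF, which passed the filter through its counts at 96 h, could only be called higher. The median log2 fold change was 1.17 over the 6 genes and 0.02 over all genes tested.

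**Figure D1:**
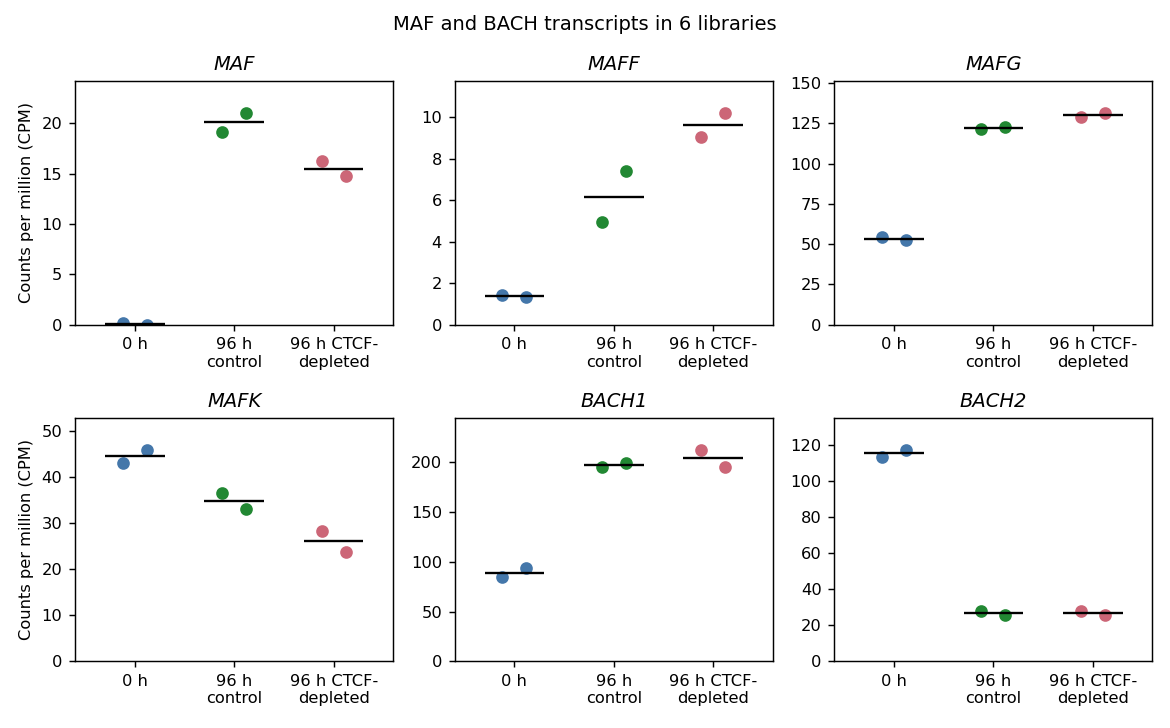
Level of each gene in counts scaled to library size (CPM, y axis, each panel with its own scale from 0) in the 2 libraries (points) of each of the 3 groups, with the group mean as a line. MAF is at 0.103 CPM at 0 h and 20.1 CPM in 96 h control cells, BACH2 goes from 115 to 26.7 CPM, and the control and CTCF-depleted libraries overlap for BACH1 and BACH2.

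MAF was almost absent from B cells. It had 2 and 0 counts at 0 h, 217 and 227 at 96 h in control libraries and 175 and 160 in CTCF-depleted libraries. All 4 libraries at 96 h were far above both libraries at 0 h, and the control libraries were above the CTCF-depleted libraries. Scaled to library size, the counts rose 231-fold from 0 h to 96 h control (95% interval from counting error 63.6 to 1914) and 178-fold to 96 h CTCF-depleted (48.9 to 1477), and edgeR called both changes (adjusted p = 3.35e-27 and 5.36e-25). The size of the change rests on the 0 h libraries: the log2 fold change to 96 h control was 7.68 with both, 6.48 without 0 h replicate 2 and 10.83 without 0 h replicate 1, where the remaining library had 0 counts and the fitted value depends on the prior count.

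Of the small MAF genes, MAFF and MAFG rose and MAFK did not. MAFF, known as a stress- and cytokine-inducible small MAF gene, was low throughout, with 14 and 18 counts at 0 h, 56 and 80 in control and 98 and 111 in CTCF-depleted libraries. The 3 groups did not overlap, and the levels of 1.40 CPM ± 0.07 (SD, n = 2), 6.18 CPM ± 1.74 and 9.65 CPM ± 0.81 correspond to a 4.40-fold rise in control cells (log2 fold change 2.14, SE 0.29, edgeR adjusted p = 2.08e-09). MAFG had 528 and 699 counts at 0 h, 1379 and 1326 in control and 1391 and 1427 in CTCF-depleted libraries, or 53.4 CPM ± 1.44, 122 CPM ± 0.77 and 130.1 CPM ± 1.88. The rise to 96 h control was 2.29-fold (log2 fold change 1.20, SE 0.07, edgeR adjusted p = 1.05e-23), with all libraries at 96 h above those at 0 h.

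MAFK was the only small MAF gene with lower levels at 96 h. Its counts were 416 and 612 at 0 h, 413 and 357 in control and 306 and 258 in CTCF-depleted libraries, which gave 44.4 CPM ± 2.11, 34.8 CPM ± 2.40 and 26.1 CPM ± 3.23. The 3 groups did not overlap after scaling. The log2 fold change from 0 h to 96 h control was -0.36 (SE 0.09, edgeR adjusted p = 2.13e-04), short of the fold change threshold, and that to 96 h CTCF-depleted was -0.77 (SE 0.09, edgeR adjusted p = 3.37e-11), which was called lower.

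The 2 BACH genes moved in opposite directions. BACH1 had 820 and 1250 counts at 0 h, 2210 and 2147 in control and 2299 and 2124 in CTCF-depleted libraries, and rose 2.20-fold from 89.2 CPM ± 6.48 to 197 CPM ± 2.67 in control cells (log2 fold change 1.14, SE 0.06, edgeR adjusted p = 1.59e-25). BACH2 had 1095 and 1564 counts at 0 h, 316 and 275 in control and 302 and 279 in CTCF-depleted libraries, and fell 4.31-fold from 115 CPM ± 3.08 to 26.7 CPM ± 1.71 (log2 fold change -2.11, SE 0.08, edgeR adjusted p = 3.12e-31). For both genes, the libraries at 96 h were clearly separate from those at 0 h, while control and CTCF-depleted libraries overlapped. BACH2 transcripts remained detectable at 96 h, where the summed B cell markers were also above 0, and the part of remaining B cells in this level was not tested.

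The same 4 genes were higher at 96 h when CTCF was depleted. In 96 h CTCF-depleted cells against 0 h, a comparison that shares the 0 h libraries with the previous comparison, MAF, MAFF, MAFG and BACH1 were called higher (4 of 6 genes, against 27.2% of all genes tested) and MAFK and BACH2 lower (2 of 6, against 25.2%). MAFF rose 6.89-fold (log2 fold change 2.79, SE 0.26), MAFG 2.44-fold (1.29, SE 0.07) and BACH1 2.28-fold (1.19, SE 0.06), and BACH2 fell 4.29-fold (-2.10, SE 0.08). The edgeR adjusted p of these 4 genes was at most 3.46e-14.

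The direct comparison of 96 h CTCF-depleted with 96 h control cells asks how levels differ with CTCF depletion at the same time point. MAFF was the only gene of the 6 called, at 1.57 times its control level (log2 fold change 0.65, SE 0.20, edgeR adjusted p = 0.0067). This is 1 of 6 genes called higher, against 5.41% of all genes tested, and 0 of 6 called lower, against 7.03%. At an unadjusted p below 0.05, 3 genes differed (MAFF higher, MAF and MAFK lower), and DESeq2, the tool used in the study, called 0. The call was lost with DESeq2, at a similar fold change (log2 0.66, adjusted p = 0.148). It also rested on single libraries, being lost without control replicate 1 (log2 fold change 0.41, adjusted p = 0.191) and without CTCF-depleted replicate 2 (0.59, adjusted p = 0.0638), while the direction was the same in all of these fits.

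**Figure D2:**
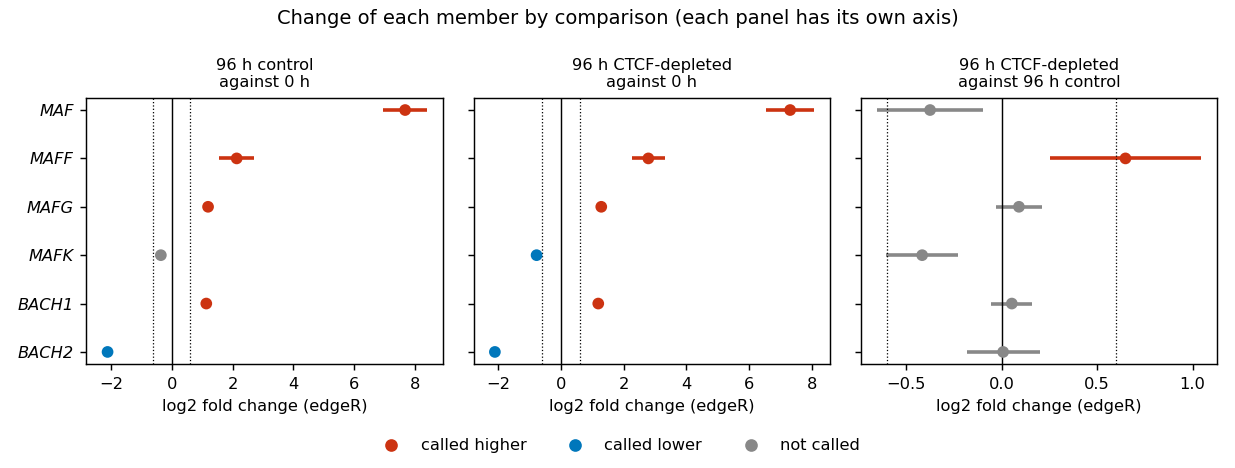
Log2 fold change (x axis, edgeR) of the 6 genes in the 3 comparisons, with points for estimates and bars for 95% intervals. Dotted lines mark the fold change threshold of 0.6 in both directions, and each panel has its own axis. BACH2 is at -2.11 and -2.10 against 0 h and at 0.01 between the groups at 96 h, where MAFF at 0.65 is the only gene called.

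MAFK and MAF were lower in CTCF-depleted cells by less than the threshold. MAFK was 25.0% lower (log2 fold change -0.42, SE 0.09, edgeR adjusted p = 2.54e-04, 95% interval -0.61 to -0.23). With DESeq2, MAFK did not pass the adjusted p threshold (adjusted p = 0.0283). Leaving out single libraries gave MAFK log2 fold changes from -0.51 to -0.27. MAF was 23.0% lower, at 15.5 CPM ± 1.04 against 20.1 CPM ± 1.32 (log2 fold change -0.38, SE 0.14, edgeR adjusted p = 0.0264, 95% interval -0.65 to -0.10). For MAF, DESeq2 gave an adjusted p of 0.267, and leaving out single libraries gave log2 fold changes from -0.41 to -0.28. No difference was detected for MAFG (log2 fold change 0.09, 95% interval -0.03 to 0.21), BACH1 (0.05, -0.05 to 0.16) or BACH2 (0.01, -0.18 to 0.20). These intervals bound a difference to within 0.21 on the log2 scale for each of the 3 genes.

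Levels can be compared between genes only per length, and were divided by the kilobases of annotated exons (CPM per kb). At 0 h, BACH1 was the highest (11.6 CPM per kb ± 0.85), followed by BACH2 (10.6 ± 0.28), MAFG (10.2 ± 0.27) and MAFK (9.93 ± 0.47), with MAFG and MAFK overlapping, and then by MAFF (0.249 ± 0.012) and MAF (0.0147 ± 0.021). In 96 h control cells the order was BACH1 (25.7 CPM per kb ± 0.35), MAFG (23.3 ± 0.15), MAFK (7.78 ± 0.54), MAF (2.87 ± 0.19), BACH2 (2.45 ± 0.16) and MAFF (1.10 ± 0.31). In 96 h CTCF-depleted cells BACH1 (26.6 CPM per kb ± 1.59) and MAFG (24.8 ± 0.36) again led, followed by MAFK (5.83 ± 0.72), BACH2 (2.47 ± 0.15), MAF (2.21 ± 0.15) and MAFF (1.72 ± 0.15). The order depends on the gene model. With the length of the longest coding transcript, MAFK was the second at 0 h (13.1 CPM per kb ± 0.63) and overlapped BACH2 (12.5 ± 0.33), and with this length MAF, BACH2 and MAFF overlapped in control cells, and MAFF (3.93 ± 0.33) was above BACH2 (2.91 ± 0.17) and MAF (2.42 ± 0.16) in CTCF-depleted cells. Another length was that of the transcript with the longest coding sequence. For MAFK this transcript has 632 bases, with a coding sequence of 469 bases beside 468 in the longest coding transcript of 3380 bases. On this near tie, the short length put MAFK first in all 3 groups, at 70.3, 55.0 and 41.2 CPM per kb. With this length, MAF was above BACH2 in both groups at 96 h (5.80 against 2.91 CPM per kb with CTCF depleted).

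Ratios within a library do not depend on the scaling between libraries. The level of BACH1 per kb was 1.06 and 1.13 times that of BACH2 in the 0 h libraries, 9.91 and 11.1 times in the control libraries and 10.8 and 10.8 times in the CTCF-depleted libraries. The ratio thus went from near parity to a strong excess of BACH1 at 96 h, where control and CTCF-depleted libraries overlapped. The value at 0 h depends on the length used. It was 1.20 and 1.28 with the longest coding transcript, and 0.75 and 0.80 in counts not divided by length. With 2 libraries per group, the smallest 2-sided p of an exact permutation test is 0.333, and no test of the ratios was made.

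**Figure D3:**
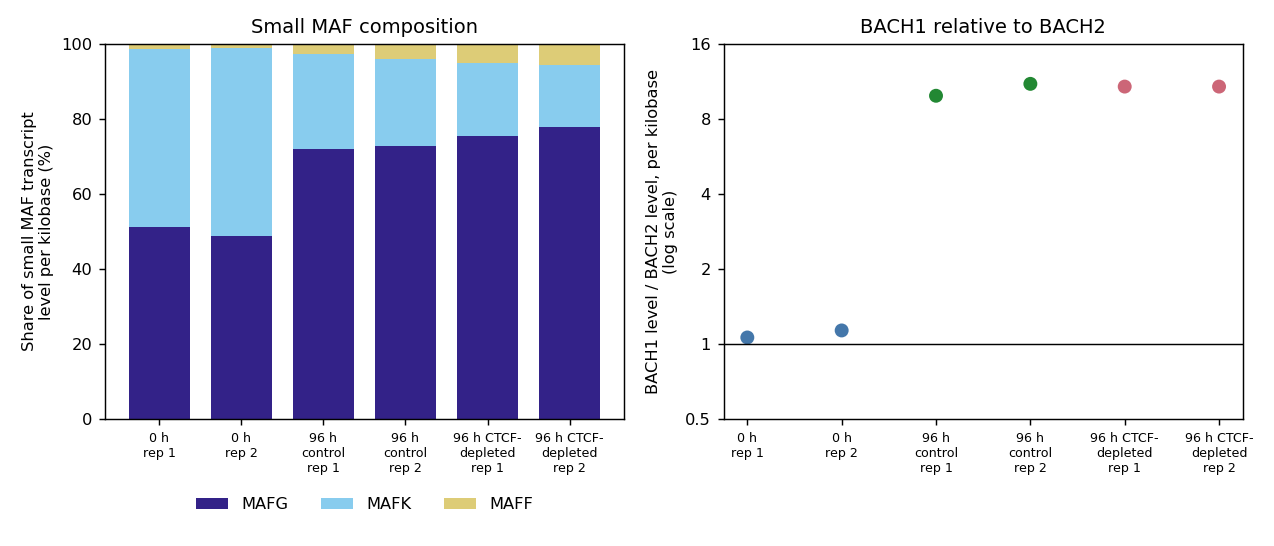
Left, share of each small MAF gene (stacked bars, % of the summed level per kb of annotated exons) in the 6 libraries. Right, BACH1 level divided by BACH2 level per kb on a log scale, with points for libraries and the line at 1. MAFG goes from 50.04% of the small MAF level at 0 h to 72.4% in control and 76.7% in CTCF-depleted libraries, and the BACH1 to BACH2 ratio from 1.06 and 1.13 to at least 9.91.

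The small MAF pool also changed in makeup. The summed level of MAFF, MAFG and MAFK was 20.4 CPM per kb ± 0.19 (SD, n = 2) at 0 h, 32.2 ± 0.08 at 96 h with CTCF and 32.4 ± 0.22 without. MAFG made up 50.04% ± 1.81 of it at 0 h, 72.4% ± 0.63 in control and 76.7% ± 1.63 in CTCF-depleted cells. The share of MAFK went from 48.7% ± 1.88 to 24.1% ± 1.61 and 18.0% ± 2.11, and that of MAFF from 1.22% ± 0.07 to 3.42% ± 0.97 and 5.31% ± 0.48. The shares depend on the gene model. With the length of the longest coding transcript, MAFK was ahead of MAFG at 0 h (54.1% ± 1.88 against 43.5% ± 1.74), and in CTCF-depleted cells MAFG made up 68.9% ± 1.46, MAFK 20.6% ± 2.42 and MAFF 10.5% ± 0.96. With the transcript of the longest coding sequence, of 632 bases for MAFK and chosen on the near tie described above, MAFK was above MAFG in every group (41.2 against 25.7 CPM per kb with CTCF depleted). For each of the 3 shares over all annotated exons, control and CTCF-depleted libraries did not overlap. The ratio of MAFG to MAFK counts, which needs no gene length to be followed between libraries, was 1.27 and 1.14 at 0 h, 3.34 and 3.71 in control and 4.55 and 5.53 in CTCF-depleted libraries.

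Of the 4 CNC partners of small MAF proteins, NFE2 and NFE2L2 rose during conversion, NFE2L3 fell and NFE2L1 was not called. NFE2, best known as an erythroid and megakaryocyte factor, had 3 and 1 counts at 0 h, 2386 and 2361 in control and 1775 and 1905 in CTCF-depleted libraries. It passed the filter through its counts at 96 h, so that it could only be called higher against 0 h. The count ratio of control to 0 h was 1235 (95% counting interval 482 to 4534). NFE2L2, which encodes the stress-responsive activator NRF2, rose from 51.3 CPM ± 1.45 to 154 CPM ± 1.58 (log2 fold change 1.59, SE 0.06, edgeR adjusted p = 3.74e-30), and NFE2L3 fell 5.92-fold, from 17.8 CPM ± 0.96 to 2.99 CPM ± 0.23. The same 2 partners were called higher and the same 1 lower in CTCF-depleted cells against 0 h. Of all genes tested, 25.4% were higher and 22.9% lower in control against 0 h, and 27.2% and 25.2% in CTCF-depleted against 0 h. Between the groups at 96 h, edgeR and DESeq2 each called 0 of the 4 partners, where edgeR called 5.41% of all genes higher and 7.03% lower. An unadjusted p below 0.05 was reached by 3, NFE2 at a log2 fold change of -0.34 (SE 0.06), NFE2L2 at -0.13 and NFE2L1 at 0.17. The median over the 4 was -0.23, beside -0.03 over all genes tested.

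Genes that control the stability of NRF2 and BACH1 proteins kept their transcript levels within the threshold. KEAP1 and CUL3 (the ligase that degrades NRF2), FBXO22 and FBXL17 (which target BACH1) and BTRC had log2 fold changes of -0.24, 0.03, 0.06, 0.47 and -0.28 in 96 h control cells against 0 h. edgeR and DESeq2 each called 0 of these 5 genes in any of the 3 comparisons, with 3, 1 and 2 of them at an unadjusted p below 0.05 in control against 0 h, CTCF-depleted against control and CTCF-depleted against 0 h. In the same order, edgeR called 25.4%, 5.41% and 27.2% of all genes tested higher and 22.9%, 7.03% and 25.2% lower. In the depletion comparison, BTRC was at 0.43 (edgeR adjusted p = 2.03e-04) and passed the threshold only without control replicate 1, at 0.60.

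Of 17 target genes of BACH1 and NRF2, 15 passed the filter on low counts. In 96 h control cells against 0 h, 9 were higher, 3 were lower (TXNRD1, ABCB6 and FECH) and 3 were not called, beside 25.4% higher and 22.9% lower of all genes tested, with a median log2 fold change of 0.91. The call of NQO1, a quinone reductase, was lost with DESeq2 (adjusted p = 0.0131) and without control replicate 1 (0.90, adjusted p = 0.0149). HMOX1, which degrades heme and is the best-known target of BACH1, passed the filter through its counts at 96 h. It could therefore only be called higher against 0 h. It had 1 and 0 counts at 0 h and 594 and 530 in control libraries, a count ratio of 1170 (95% counting interval 209.5 to 46240). FTH1, the heavy chain of the iron store ferritin, rose 9.67-fold from 2409 and 2916 counts to 25522 and 24296. BLVRB, a biliverdin reductase, rose 3.35-fold (log2 fold change 1.74, SE 0.15, edgeR adjusted p = 2.65e-15). Transcripts of HMOX1 and of BACH1, its repressor, were thus both higher at 96 h than at 0 h. In CTCF-depleted cells against 0 h, 9 were higher and 3 lower, beside 27.2% and 25.2% of all genes tested. Among the 9 were HMOX1 and OSGIN1, the latter at 15 and 16 counts against 3 and 4. OSGIN1 passed the filter through its counts in CTCF-depleted libraries, so that it, like HMOX1, could only be called higher against 0 h. The OSGIN1 call was lost with DESeq2 (adjusted p = 0.0441) and without either 0 h library or CTCF-depleted replicate 2.

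Between the groups at 96 h, 0 of the 15 targets were called higher and 2 lower, beside 5.41% and 7.03% of all genes tested, with a median of 0.09. HMOX1 had 212 and 219 counts in the CTCF-depleted libraries, well below both control libraries, and its level fell 2.55-fold from 50.8 CPM ± 2.36 to 19.9 CPM ± 0.39 (log2 fold change -1.35, SE 0.10, edgeR adjusted p = 3.95e-17). SLC48A1, a heme transporter, fell 1.59-fold from 181 and 150 counts to 97 and 106 (log2 fold change -0.67, SE 0.16, edgeR adjusted p = 3.57e-04), and this call was lost with DESeq2 (adjusted p = 0.0316), without control replicate 1 (-0.53) and without CTCF-depleted replicate 1 (-0.57). HMOX1 was called lower by DESeq2 as well. For targets called higher, edgeR and DESeq2 each gave 0, with 4 at an unadjusted p below 0.05. BACH1 and BACH2 transcripts, as above, showed no detected difference in this comparison.

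**Figure D4:**
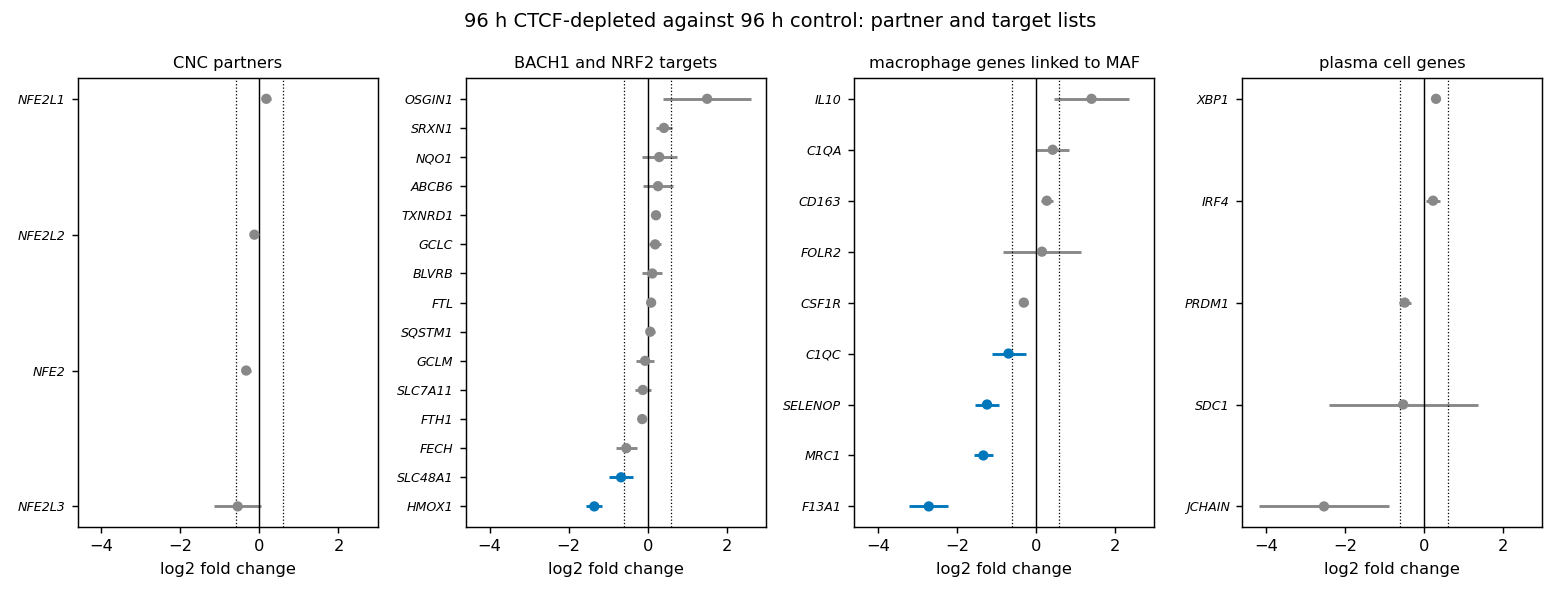
Log2 fold change (x axis, edgeR) of 96 h CTCF-depleted against 96 h control cells for genes of 4 lists, with 95% intervals as bars. Blue marks genes called lower and grey genes not called, and the dotted lines mark the threshold of 0.6 in both directions. HMOX1 at -1.35 and SLC48A1 at -0.67 are the called targets of BACH1 and NRF2, and F13A1 at -2.71 is the lowest of the macrophage genes linked to MAF.

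The genes of the plasma cell programme did not move as a group while BACH2 fell. PRDM1, a master regulator of plasma cell differentiation and a direct target of BACH2, rose 55.8-fold, from 13 and 18 counts at 0 h to 871 and 804 in control libraries (log2 fold change 5.80, SE 0.15, edgeR adjusted p = 4.49e-40). XBP1, which drives the secretory apparatus, rose 2.35-fold (log2 fold change 1.23, SE 0.05). IRF4, JCHAIN and SDC1 fell, with log2 fold changes of -3.23 (SE 0.07), -6.29 (SE 0.21) and -4.53 (SE 0.43). Thus 2 of the 5 genes were higher and 3 lower, beside 25.4% and 22.9% of all genes tested. JCHAIN and SDC1 passed the filter through their counts at 0 h, so that they could only be called lower against 0 h. The number of genes called lower therefore does not support a direction. The same genes were called in the same directions in CTCF-depleted cells against 0 h, beside 27.2% higher and 25.2% lower of all genes tested. Between the groups at 96 h, edgeR and DESeq2 each called 0 of 5, where edgeR called 5.41% of all genes higher and 7.03% lower. An unadjusted p below 0.05 was reached by 4. PRDM1 was at a log2 fold change of -0.49 (SE 0.08), IRF4 at 0.23, XBP1 at 0.31 and JCHAIN at -2.53 with at most 8 counts in any library at 96 h.

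Of 10 macrophage genes linked to MAF, 9 passed the filter and were called higher in both groups at 96 h than at 0 h. Apart from CSF1R, the receptor of CSF-1, they had at most 11 counts in either 0 h library and passed the filter through their counts at 96 h, so that they could only be higher and their number describes the list without supporting a direction. CSF1R, MRC1 and CD163 of this list are also among the macrophage markers, which all rose, and the part of the macrophage markers in this result was not tested. The rise of FOLR2, a folate receptor with 2 counts in all at 0 h, was not called with DESeq2 (adjusted p = 0.0147) or without 0 h replicate 2 (adjusted p = 0.0174) in control cells. CD163, a scavenger receptor for hemoglobin, had 0 counts in both 0 h libraries and was at least 197-fold higher in control cells, relative to a floor of 3 counts per library, and C1QC and C1QA, chains of complement C1q, were at least 30.4-fold and 23.5-fold higher. IL10, an anti-inflammatory cytokine, stayed low, with 0 and 0 counts at 0 h, 10 and 6 in control and 24 and 18 in CTCF-depleted libraries, at least 2.69-fold and 7.26-fold above 0 h.

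With CTCF depletion, edgeR called 4 of these 9 genes lower, where 7.03% of all genes tested were, and DESeq2 called 3. Both tools called 0 of them higher, where edgeR called 5.41% of all genes, with 3 higher at an unadjusted p below 0.05. F13A1, a coagulation factor chain made by macrophages, fell 6.54-fold from 148 and 121 counts to 20 and 20 (log2 fold change -2.71, SE 0.24, edgeR adjusted p = 5.59e-14). MRC1, the mannose receptor, fell 2.51-fold from 402 and 376 counts to 151 and 152, and SELENOP, a selenium transport protein listed as SEPP1, fell 2.35-fold from 251 and 240 counts to 93 and 111 (log2 fold changes -1.33, SE 0.12, and -1.24, SE 0.15). C1QC was the other gene called (-0.69, SE 0.21), and that call was lost with DESeq2 (adjusted p = 0.185) and without each of the 4 libraries at 96 h in turn. IL10 was at a log2 fold change of 1.41 (SE 0.47, edgeR adjusted p = 0.014) and CD163 at 0.28 (SE 0.08). IL10 was called higher in a fit of only the 4 libraries at 96 h (adjusted p = 0.0063), and C1QA without CTCF-depleted replicate 2 (0.77, adjusted p = 0.0096). The median over the 9 genes was -0.30, beside -0.03 over all genes tested. The summed macrophage markers, 5003 to 5383 CPM in all libraries at 96 h, consist mostly of LYZ (lysozyme), at 4527 CPM ± 185 with CTCF and 4158 CPM ± 15.2 without. Of the other markers, ITGAM, an integrin chain, was called 2.22-fold higher with depletion (1362 and 1468 counts in control, 3125 and 3039 in CTCF-depleted libraries), and MRC1 was lower as above. The part of these markers in the lower levels was not tested.

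MAFG-AS1 was the only one of 8 listed noncoding RNAs at these loci found in the table. It had 14 and 27 counts at 0 h, 12 and 13 in control and 25 and 20 in CTCF-depleted libraries, and was not called in any comparison (log2 fold changes -0.64, 0.87 and 0.23 in control against 0 h, CTCF-depleted against control and CTCF-depleted against 0 h). DESeq2 called it in 0 comparisons as well, and an unadjusted p below 0.05 was reached in 1, that between the groups at 96 h.

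The genes whose pattern was most like that of each member were found by Pearson's r of log2 CPM over the 6 libraries, which mostly reflects the difference between 0 h and 96 h that these libraries share. MAF was nearest to MRPL33, PLEKHM1 and PTPRC, MAFG to CPEB4, CD68 and FN1, BACH1 to MR1, EAF2 and ADAM23, and BACH2 to CD2AP, SLC7A5 and MAPKAPK5, each with r of at least 0.999. Such patterns were common, with 779, 1128, 833 and 536 of the 14758 genes tested at r above 0.99. MAFF (nearest FADS3, RXFP1 and RP11-539L10.2) had 116 such genes. MAFK, which was lower in control than at 0 h and lower again with CTCF depletion, had 8, led by KIFAP3, RGS12 and RPL22L1 with r of 0.996, 0.994 and 0.994. KIFAP3 had 17.9 and 21.5 CPM at 0 h, 13.2 and 11.6 CPM in control and 7.50 and 5.90 CPM in CTCF-depleted libraries.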

How the data were processed

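Transcripts of BLaER1-CTCF-mAID cells were measured in 6 RNA-seq libraries, prepared from rRNA-depleted total RNA with a stranded kit. The count values are raw counts per gene as deposited by the authors, without normalization. According to the methods and the submitters' processing notes, reads were aligned to hg38 with STAR 2.6.1d and counted with featureCounts 2.0.6 over protein-coding exons. The count table also holds noncoding RNAs such as MAFG-AS1, so that it is not limited to protein-coding genes. The annotation release and the strand setting of the counting are not given in the sources used here. Reads were not reprocessed, and counts carry no molecular identifiers, so that counting intervals (95%) and the floor of 3 counts cover counting error only.

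The main fit used edgeR 4.0.16 in R 4.3.3 (filterByExpr, TMM, quasi-likelihood test, all 6 libraries, condition as the only term). Benjamini-Hochberg adjustment covered all 14758 genes tested. The thresholds are those of the study, which applied them with DESeq2 rather than edgeR. With DESeq2, 559 genes were called higher and 721 lower in CTCF-depleted against control cells, beside 798 and 1038 with edgeR. The p-values rest on the spread between replicates of 1 subclone. In edgeR, the spread of each gene was drawn strongly toward that of all genes (51.7 prior degrees of freedom). The edgeR SE was the absolute log2 fold change divided by the square root of the F statistic. CPM used TMM-scaled library sizes, and correlations used log2 CPM with a prior count of 2. Simulated counts with known changes were used to test the fit. Alternatives were DESeq2 1.42.0, RLE normalization, other filters and thresholds, the replicate number as a block, a fit restricted to the 4 libraries of a comparison, other gene lengths and leaving out each library.

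The 6 genes and all lists were chosen with earlier results of these data known. All 6 are named. Of the lists of partners, regulators and targets (not the cell type markers), named are genes of lists of up to 6 genes, HMOX1, PRDM1, IL10 and, of longer lists, the 3 called genes with the largest fold change per comparison. Other genes named from longer lists and marker lists were chosen after their values were seen. JCHAIN and SELENOP were matched by earlier symbols.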

Additional observations from a re-analysis of the deposited data

Results flagged for a closer look

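The change of MAFF from 0 h to 96 h differed with CTCF depletion past both thresholds, with a log2 difference of 0.65 (edgeR adjusted p = 0.0067). Because both changes start from the same 0 h libraries, this is the comparison of CTCF-depleted with control cells given above and no further test. Both CTCF-depleted libraries were above both control libraries. The call was lost with DESeq2 (adjusted p = 0.148), without control replicate 1 and without CTCF-depleted replicate 2. In the same edgeR comparison, MAFK passed the adjusted p threshold but not the fold change threshold (log2 difference -0.42, edgeR adjusted p = 2.54e-04). With DESeq2, MAFK passed neither (adjusted p = 0.0283). With 2 libraries in each group, no search for outlying libraries was made.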

How the results depend on the processing

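In 96 h control against 0 h, 4 genes were called higher and 1 lower in every leave-one-out fit, and in CTCF-depleted against 0 h, 4 and 2. Without a fold change threshold and at an adjusted p below 0.05, 2 genes were lower in control against 0 h (MAFK and BACH2) and 2 in CTCF-depleted against control (MAF and MAFK). The single gene higher with depletion, MAFF, became 0 with DESeq2 and 0 at an absolute log2 fold change above 1, and leaving out replicates gave 0 to 1 higher and 0 to 0 lower. At that stricter threshold, 1 gene was lower in CTCF-depleted against 0 h. The depletion estimate of BACH2, near 0 throughout, ranged from -0.0257 to 0.108 over the fits without a replicate, negative without control replicate 2 and without CTCF-depleted replicate 1 (-0.0155). The cause of these changes was not tested. Requiring at least 10 counts in every library left MAF without a value. RLE normalization changed no call of the 6 genes.

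Replicate numbers were not treated as pairs, since the correlation of same-numbered deviations was -0.0194, 0.0109 and -0.0294. The replicate block changed no call of the 6 genes (1 higher and 0 lower with depletion), and moved the calls over all genes in that comparison from 798 higher and 1038 lower to 785 and 1033. The length of the transcript with the longest coding sequence, used for the order of levels, was added after seeing the data. MAF at 0 h, with at most 2 counts per library, is limited by depth. Without a replicate, the remaining library of a group was assumed to vary like those of the other groups.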
